A study of Mus musculus with 12 samples.

Results

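Lgals2, Lipc, Wfdc6a, Slc36a2, Cubn and Mir99ahg are 6 of the 39179 mouse genes counted in RNA from embryonic calvariae (the bony roof of the skull). They were picked because earlier results from these same libraries had shown them higher with MS-275 while they lay outside lists of known bone genes. The difference between MS-275 and vehicle therefore chose them, and its values and calls are given below as a description that supports nothing. All 6 passed the filter on low counts, as did 17967 genes in all. MS-275 (entinostat) is an inhibitor of class I histone deacetylases. The libraries fall into 4 groups of 3: Runx2+/- embryos of dams given MS-275, Runx2+/- embryos of dams given vehicle, wild-type (WT) embryos of dams given MS-275, and WT embryos of dams given vehicle. All embryos were C57BL/6 at embryonic day 17.5, from WT and Runx2+/- parents that were mated at 8 weeks. The dams were injected into the peritoneum 2 times, at 14.5 and 16.5 days post coitum, with 10 mg/kg of MS-275 in the treated groups. Drug and vehicle thus reached the embryos through the dam. The labels do not say which part of Runx2 was deleted, what the vehicle was, or whether the replicates were separate embryos or litters, so p-values measure the spread between these samples, which may be technical.

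Most of the 6 genes are best known outside bone. Lgals2 encodes galectin-2, a small lectin that binds beta-galactosides and is made in the gut. Lipc encodes hepatic lipase, which liver cells secrete and which hydrolyses the triglycerides and phospholipids of lipoproteins. Wfdc6a encodes a protein with a whey acidic protein domain, a fold shared by many secreted protease inhibitors. Slc36a2 encodes PAT2, a proton-coupled transporter of glycine, proline and alanine that is known from the kidney and as a surface marker of brown fat cells. Cubn encodes cubilin, the endocytic receptor of the ileum and the renal proximal tubule that takes up vitamin B12 bound to intrinsic factor, and which acts with amnionless and megalin. Mir99ahg is a long noncoding RNA that hosts the microRNAs miR-99a, let-7c and miR-125b. Histone deacetylases remove acetyl groups from histones, and inhibitors of class I enzymes raise histone acetylation at many genes. Runx2 is the transcription factor required for osteoblast formation.

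Counts in genes ranged from 13307456 to 19399760 per library, and levels are given as CPM, a gene's count relative to the library total after TMM scaling. For a gene without counts the data allow up to 3, which is 0.120 to 0.279 CPM in a library. On the first principal component, which held 72.5% of the variance, Runx2+/- MS-275 replicate 3 had a score of -106, the other 5 MS-275 libraries 83.9 to 140.03, and 4 of the 6 vehicle libraries -122 to -92.7. Runx2+/- vehicle replicate 3 (-14.5) and WT vehicle replicate 3 (5.51) lay between. In Runx2+/- MS-275 replicates 1, 2 and 3 a list of 7 epidermis markers summed to 7.52, 16.0 and 1712 CPM. A list of 5 lens markers summed to 6.04, 5.19 and 649 CPM there. The marker content of replicate 3 thus differed from that of the other libraries of its group. Whether its label or the tissue taken lay behind this could not be worked out. The difference bears on every value of that group and on the genotype and interaction values. The MS-275 differences of the 6 genes in Runx2+/- are therefore given with and without replicate 3. The group means of other genes, and those per kilobase, include it. Mitochondrial genes took 12.7% to 24.2% of gene counts in the other 5 MS-275 libraries, 9.48% in Runx2+/- MS-275 replicate 3 and 4.32% to 5.52% in the vehicle libraries. Uniquely aligned reads outside genes were 5.21% to 8.65% in those 5 MS-275 libraries, 22.2% in Runx2+/- MS-275 replicate 3 and 10.5% to 16.8% in the vehicle libraries. The part of these shares in the MS-275 differences below was not tested. In WT MS-275 the epidermis markers summed to 11.3 to 14.4 CPM and the lens markers to 6.84 to 9.58 CPM. With vehicle the epidermis sums were 1296 to 4020 CPM in WT and 1143 to 2703 CPM in Runx2+/-. The lens sums were 11.3 to 897 CPM in WT vehicle and 13.0 to 788 CPM in Runx2+/- vehicle. The part of such tissue in the MS-275 differences of the 6 genes was not tested either. A list of 11 osteoblast markers, among them Runx2, Ibsp and Col1a1, summed to 52540, 26320 and 1747 CPM in Runx2+/- MS-275 and 12217, 4273 and 4346 CPM in Runx2+/- vehicle. It summed to 46651, 51436 and 45771 CPM in WT MS-275 and 7569, 5765 and 8417 CPM in WT vehicle. Bone markers were thus present in every library, and their sum was lowest in Runx2+/- MS-275 replicate 3. In bulk RNA, a larger share of cells of one type and more RNA per cell cannot be told apart. Runx2 itself stood at 84.1, 93.5 and 34.1 CPM in Runx2+/- MS-275 and 111, 131 and 88.2 CPM in WT MS-275. It stood at 65.3, 32.8 and 58.1 CPM in Runx2+/- vehicle and 45.5, 42.4 and 46.1 CPM in WT vehicle. Since the deleted part may still leave reads on the gene, these levels do not check the genotype labels.

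The 250 bases before the RefSeq start of Lgals2, Lipc and Wfdc6a (build GRCm38.p6) are shown because these 3 genes had the largest differences and moved together. They are written 5' to 3' along the gene's strand, with capitals for a match to 1 of the motifs searched. The Lgals2 window is chr15:78855530-78855779, the Lipc window chr9:70952222-70952471 and the Wfdc6a window chr2:164585448-164585697, all on the minus strand.
Lgals2: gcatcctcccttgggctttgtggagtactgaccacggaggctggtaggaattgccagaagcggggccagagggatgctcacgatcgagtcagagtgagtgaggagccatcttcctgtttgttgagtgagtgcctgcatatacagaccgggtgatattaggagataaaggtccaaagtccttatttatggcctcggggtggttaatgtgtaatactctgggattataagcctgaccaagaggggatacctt
Lipc: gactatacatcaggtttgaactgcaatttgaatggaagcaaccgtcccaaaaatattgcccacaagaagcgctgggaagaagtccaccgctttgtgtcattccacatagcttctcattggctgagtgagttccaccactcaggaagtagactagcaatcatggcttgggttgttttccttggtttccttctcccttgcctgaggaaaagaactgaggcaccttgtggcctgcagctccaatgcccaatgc
Wfdc6a: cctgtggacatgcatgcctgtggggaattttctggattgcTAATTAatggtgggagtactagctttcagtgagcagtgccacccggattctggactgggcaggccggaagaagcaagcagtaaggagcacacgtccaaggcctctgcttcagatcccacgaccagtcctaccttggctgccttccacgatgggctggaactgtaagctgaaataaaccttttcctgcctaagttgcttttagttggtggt
The motifs, searched on both strands, were the RUNX core TGTGGT, the GC box GGGCGG, the AP-1 site TGANTCA, the TATA box TATAAA and the homeodomain core TAATTA, the last of them chosen after the sequences were seen. None of these letters occurred in the Lgals2 and Lipc windows, and the Wfdc6a window held TAATTA once, at -210 from the start. Of 32851 mouse promoter windows of the same length, 14.0% held TGTGGT, 32.7% GGGCGG, 6.75% TGANTCA, 12.4% TATAAA and 4.84% TAATTA. The GC content was 50.8% in the Lgals2 window, 48.4% in the Lipc window and 52.0% in the Wfdc6a window, against a median of 52.4% over all windows. RefSeq entries matched 5 of the 6 genes, and no motif occurred in the Cubn and Mir99ahg windows. A second start listed for Lipc had GGGCGG at -114.

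Mir99ahg lies across 537111 bases of chromosome 16 and holds 3 microRNAs on its own strand. Their mature 5' arms (RefSeq, GRCm38.p6) are shown because they are the small RNAs this transcript carries, with the seed, bases 2 to 8, in capitals. They lie at chr16:77598940-77598961, chr16:77599672-77599693 and chr16:77646279-77646300 on the plus strand.
miR-99a-5p: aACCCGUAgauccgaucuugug
let-7c-5p: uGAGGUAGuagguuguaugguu
miR-125b-5p: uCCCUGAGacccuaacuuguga
The 3 seeds differ from each other. Counts on the microRNA genes are not taken as levels of the mature microRNAs.

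Lgals2, a lectin, was close to absent and Lipc, a lipase, low with vehicle, and both were readily counted with MS-275 in every library but Runx2+/- MS-275 replicate 3. Lgals2 (ENSMUSG00000043501) is a minus-strand gene of chromosome 15 (78850860 to 78855529) with 4 exonic stretches, by GENCODE M21 on GRCm38, as for all positions below. Its level was 6.69, 4.71 and 0.392 CPM in Runx2+/- MS-275, against 0.277, 0.215 and 0.102 CPM in Runx2+/- vehicle. In WT embryos it was 4.88, 5.40 and 6.99 CPM with MS-275, against 0.199, 0.115 and 0.247 CPM with vehicle. The groups did not overlap in either genotype, although Runx2+/- MS-275 replicate 3 lay just above the vehicle libraries. Those vehicle values rest on 2 to 6 counts per library, and the WT MS-275 values on 66 to 81. The means were 3.93 ± 3.22 CPM in Runx2+/- MS-275 and 0.198 ± 0.089 CPM in Runx2+/- vehicle, and for WT embryos 5.76 ± 1.10 CPM with MS-275 and 0.187 ± 0.067 CPM with vehicle (SD, n = 3 each). The ratio of means was 19.8 in Runx2+/- and 30.7 in WT, and 28.7 in Runx2+/- without replicate 3. The fitted log2 fold change was 4.24 (SE 0.87) in Runx2+/- and 4.88 (SE 0.89) in WT. The end of Lgals2 shares exonic bases with Cdc42ep1 on the opposite strand, and no source used here says whether the counting used strand. Cdc42ep1, an effector of the GTPase Cdc42, was at 16.7 CPM in Runx2+/- MS-275 and 15.6 CPM in Runx2+/- vehicle, and for WT embryos 31.4 CPM with MS-275 and 19.3 CPM with vehicle on average, which is not the pattern of Lgals2.

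Lipc (ENSMUSG00000032207) is a minus-strand gene of chromosome 9 (70798128 to 70952226), with 11 exonic stretches. Its level was 57.3, 27.4 and 0.958 CPM in Runx2+/- MS-275, against 4.21, 1.51 and 1.99 CPM in Runx2+/- vehicle. Among WT libraries Lipc was at 47.0, 52.9 and 71.6 CPM with MS-275, against 1.84, 0.865 and 2.87 CPM with vehicle. The WT groups did not overlap. The Runx2+/- groups overlapped through MS-275 replicate 3, which lay below all 3 vehicle libraries of its genotype. The means were 28.5 ± 28.2 CPM in Runx2+/- MS-275 and 2.57 ± 1.44 CPM in Runx2+/- vehicle, and for WT embryos 57.2 ± 12.8 CPM with MS-275 and 1.86 ± 1.00 CPM with vehicle (SD, n = 3 each). The ratio of means was 11.1 in Runx2+/- and 30.8 in WT, and 16.5 in Runx2+/- without replicate 3. On the log2 scale the fitted difference was 3.47 (SE 1.04) in Runx2+/- and 4.93 (SE 1.11) in WT. Hepatocyte markers were uneven between libraries. Alb, which encodes serum albumin, was at 0, 0.239 and 29.1 CPM in Runx2+/- MS-275, against 122, 471 and 25.6 CPM in Runx2+/- vehicle. In WT embryos Alb was at 0.260, 0.246 and 1.04 CPM with MS-275, against 35.1, 75.4 and 8.26 CPM with vehicle. Libraries with the most Lipc thus had the least Alb. The whole list of 7 hepatocyte markers summed to 10.5 to 903 CPM in Runx2+/- MS-275 and 224 to 916 CPM in Runx2+/- vehicle. It summed to 3.77 to 688 CPM in WT MS-275, where 1 marker had no count, and 19.3 to 295 CPM in WT vehicle. Most of the highest sums in MS-275 libraries came from Ttr, which encodes transthyretin and is also made by the choroid plexus, with 903 CPM in Runx2+/- MS-275 replicate 1 and 688 CPM in WT MS-275 replicate 1. The part of liver RNA in the Lipc level was not tested.

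Wfdc6a had the lowest counts of the 6 genes and the same order of groups. Wfdc6a (ENSMUSG00000074595) is a minus-strand gene of chromosome 2 (164579519 to 164585447), with 5 exonic stretches. Its level was 3.99 and 2.79 CPM in Runx2+/- MS-275 replicates 1 and 2 and no count in replicate 3, which allows up to 0.131 CPM, against 0.370, 0.129 and 0.102 CPM in Runx2+/- vehicle. WT libraries held 2.21, 3.60 and 4.40 CPM of it with MS-275, against 0.080, 0.115 and 0.148 CPM with vehicle. The WT groups did not overlap, and the Runx2+/- groups overlapped through MS-275 replicate 3. Vehicle libraries held 2 to 8 counts of Wfdc6a, so its ratios rest on few reads. The ratio of means was 11.3 in Runx2+/- and 29.7 in WT, and 16.9 in Runx2+/- without replicate 3. The fitted log2 difference was 3.42 (SE 1.21) in Runx2+/- and 4.82 (SE 1.30) in WT. A list of 6 genes of the male reproductive tract, where other genes of the Wfdc cluster are known to be expressed, summed to 0.464 to 10.8 CPM in Runx2+/- MS-275 and 9.69 to 13.6 CPM in Runx2+/- vehicle. It summed to 0.521 to 1.12 CPM in WT MS-275, against 10.6 to 11.8 CPM in WT vehicle. Of its 6 genes, 4 passed the filter on low counts. Its marker Eppin, which also has a whey acidic protein domain, had 1 count in 1 WT vehicle library and none in the other 11. The part of that tissue in the Wfdc6a level was not tested.

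**Figure D1:**
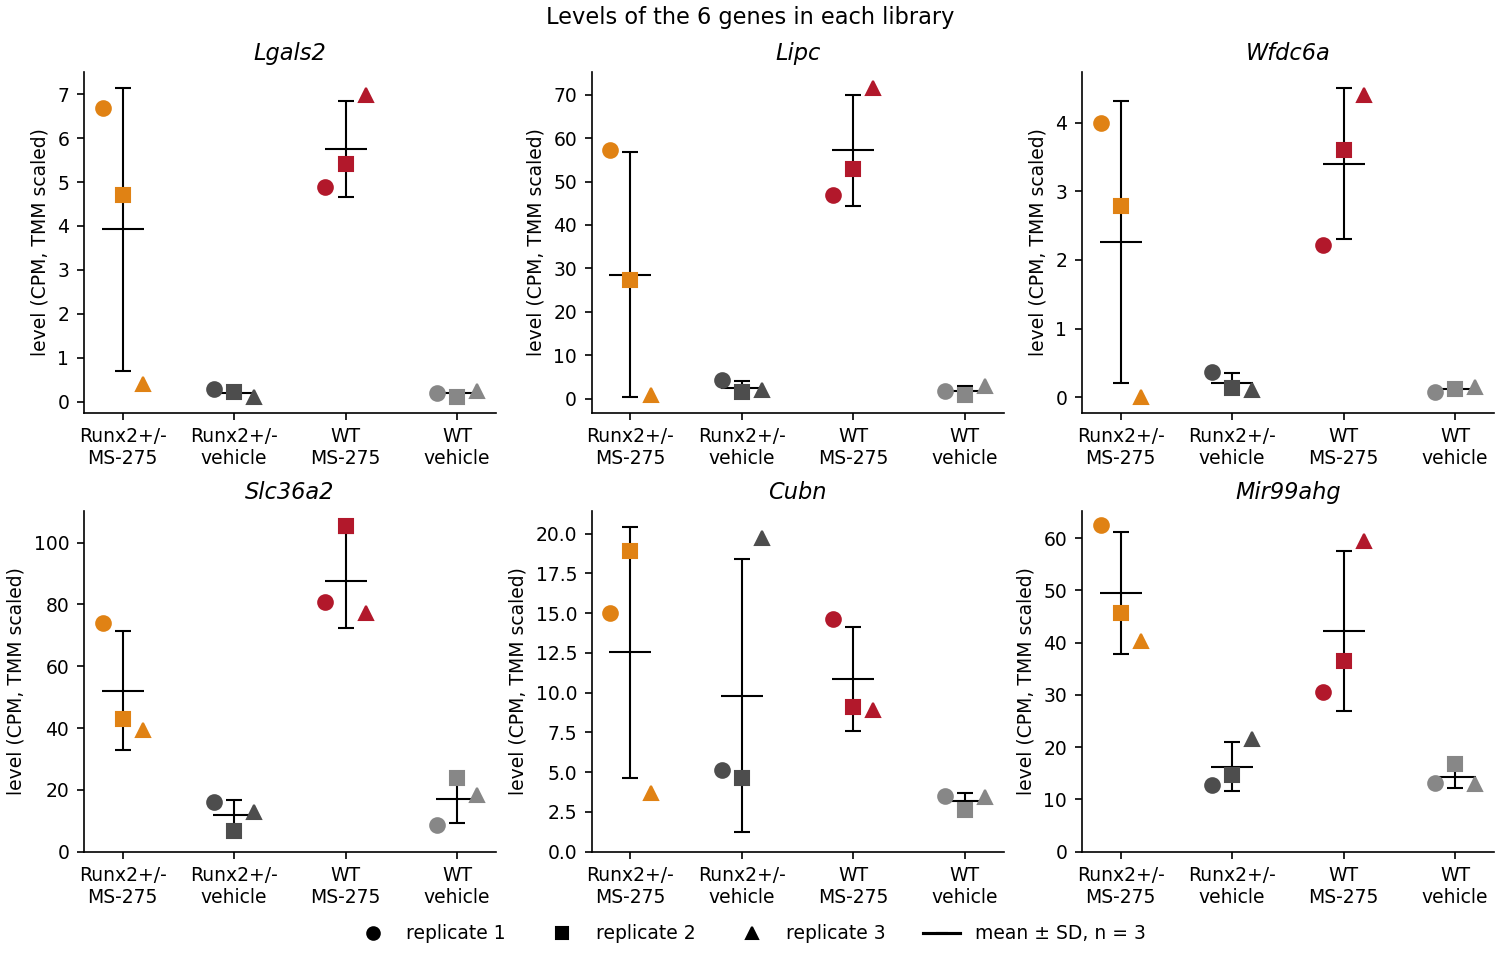
Levels of the 6 genes (y axis, CPM after scaling) in the 12 libraries, by group (x axis); symbols mark the replicate number and the black bars give the mean and SD of 3 libraries. For Lgals2, Lipc and Wfdc6a the triangle of Runx2+/- MS-275 lies at the level of the vehicle libraries (0.392, 0.958 and 0 CPM), for Slc36a2 and Mir99ahg it lies above them (39.3 and 40.3 CPM), and for Cubn the highest point, 19.7 CPM, is a vehicle library.

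Slc36a2 and Mir99ahg were counted in every library and kept their higher level in Runx2+/- MS-275 replicate 3. Slc36a2 (ENSMUSG00000020264) is a minus-strand gene of chromosome 11 (55158470 to 55185077), with 10 exonic stretches. Its level was 74.1, 42.8 and 39.3 CPM in Runx2+/- MS-275, against 16.2, 6.59 and 12.7 CPM in Runx2+/- vehicle. In WT embryos it was 80.7, 105 and 77.2 CPM with MS-275, against 8.65, 23.8 and 18.5 CPM with vehicle. The groups did not overlap in either genotype. The means were 52.1 ± 19.2 CPM in Runx2+/- MS-275 and 11.8 ± 4.86 CPM in Runx2+/- vehicle, and for WT embryos 87.7 ± 15.3 CPM with MS-275 and 17.0 ± 7.69 CPM with vehicle (SD, n = 3 each). The ratio of means was 4.41 in Runx2+/- and 5.16 in WT, and the fitted log2 difference 2.14 (SE 0.43) in Runx2+/- and 2.37 (SE 0.43) in WT. Without replicate 3 the Runx2+/- values were 4.95 and 2.31. Fat cell markers were uneven between libraries: Ucp1, the uncoupling protein of brown fat, was at 0, 0 and 23.4 CPM in Runx2+/- MS-275 and 0.740, 1.51 and 0.255 CPM in Runx2+/- vehicle. Ucp1 was at 0.065, 0 and 0.173 CPM in WT MS-275 and 0.558, 52.6 and 0.742 CPM in WT vehicle. The 5 MS-275 libraries other than Runx2+/- replicate 3 thus had high Slc36a2 with Ucp1 at or near 0. The list of 7 brown fat markers summed to 29.1, 30.7 and 96.1 CPM in Runx2+/- MS-275 and 39.4, 39.1 and 18.7 CPM in Runx2+/- vehicle. It summed to 19.2, 12.6 and 14.7 CPM in WT MS-275 and 30.5, 128 and 24.6 CPM in WT vehicle. WT vehicle replicate 2, with the highest sum, also had the highest Slc36a2 of the 6 vehicle libraries, and the part of brown fat in the Slc36a2 level of that library and of Runx2+/- MS-275 replicate 3 was not tested.

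Mir99ahg (ENSMUSG00000090386) is a plus-strand gene of chromosome 16 (77236317 to 77773427), with 17 annotated transcripts and 18 exonic stretches. Its level was 62.6, 45.7 and 40.3 CPM in Runx2+/- MS-275, against 12.7, 14.6 and 21.5 CPM in Runx2+/- vehicle. In WT embryos it was 30.5, 36.5 and 59.5 CPM with MS-275, against 13.1, 16.8 and 13.0 CPM with vehicle. The groups did not overlap in either genotype, and all 6 MS-275 libraries lay above all 6 vehicle libraries. The means were 49.5 ± 11.6 CPM in Runx2+/- MS-275 and 16.3 ± 4.64 CPM in Runx2+/- vehicle, and for WT embryos 42.2 ± 15.3 CPM with MS-275 and 14.3 ± 2.20 CPM with vehicle (SD, n = 3 each). The ratio of means was 3.05 in Runx2+/- and 2.95 in WT, and the fitted log2 difference 1.61 (SE 0.30) in Runx2+/- and 1.56 (SE 0.30) in WT. Without replicate 3 the Runx2+/- values were 3.33 and 1.74. Of the microRNA genes inside it, Mir99a averaged 0.875 CPM in Runx2+/- MS-275 and 0.216 CPM in Runx2+/- vehicle, and for WT embryos 0.816 CPM with MS-275 and 0.183 CPM with vehicle. These means rest on 0 to 17 counts per library. Mir125b-2 had no count in any library.

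Cubn, the cubilin gene, had its highest group means with MS-275, but its highest single value was in a vehicle library, Runx2+/- vehicle replicate 3. Cubn (ENSMUSG00000026726) is a minus-strand gene of chromosome 2 (13276338 to 13491813), with 66 exonic stretches. Its level was 15.0, 18.9 and 3.70 CPM in Runx2+/- MS-275, against 5.13, 4.61 and 19.7 CPM in Runx2+/- vehicle. Among WT libraries Cubn was at 14.6, 9.09 and 8.89 CPM with MS-275, against 3.51, 2.60 and 3.46 CPM with vehicle. The WT groups did not overlap. The Runx2+/- groups overlapped widely, through MS-275 replicate 3 at the low end and vehicle replicate 3 at the high end. The means were 12.6 ± 7.90 CPM in Runx2+/- MS-275 and 9.82 ± 8.57 CPM in Runx2+/- vehicle, and for WT embryos 10.9 ± 3.27 CPM with MS-275 and 3.19 ± 0.515 CPM with vehicle (SD, n = 3 each). The ratio of means was 1.28 in Runx2+/- and 3.41 in WT, and the fitted log2 difference 0.35 (SE 0.64) in Runx2+/- and 1.77 (SE 0.66) in WT. In Runx2+/- that log2 difference was 0.79 without MS-275 replicate 3, 1.30 without vehicle replicate 3, and -0.075 without MS-275 replicate 2. Of 6 kidney tubule markers, Slc34a1, the phosphate transporter of the proximal tubule, had at most 1 count in a library. Slc22a6, an organic anion transporter, was at 31.0, 23.7 and 6.70 CPM in Runx2+/- MS-275 and 8.88, 7.84 and 20.9 CPM in Runx2+/- vehicle. In WT embryos Slc22a6 was at 30.5, 11.9 and 21.6 CPM with MS-275 and 8.06, 7.27 and 3.36 CPM with vehicle. High Slc22a6 in Runx2+/- vehicle replicate 3 and low Slc22a6 in Runx2+/- MS-275 replicate 3 thus went with the Cubn level of those libraries. Only 1 of the 6 kidney markers, Slc22a6, passed the filter on low counts, and it made up most of the sums given next. Slc12a1, another of the markers, went the other way in those libraries, at 0.102 and 0.261 CPM (2 and 6 counts). The whole kidney list summed to 7.01 to 31.4 CPM in Runx2+/- MS-275 and 8.35 to 21.0 CPM in Runx2+/- vehicle, and in WT embryos to 12.3 to 30.7 CPM with MS-275 and 3.66 to 8.38 CPM with vehicle, with 2 or 3 of its markers without a count in each group. Its part in the Cubn values was not tested.

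Per kilobase of exon, a scale on which genes can be compared, Slc36a2 and Lipc stood highest with MS-275. In Runx2+/- MS-275 the mean level was 16.0 CPM per kilobase for Slc36a2, 13.3 for Lipc, 6.64 for Lgals2, 3.46 for Mir99ahg, 2.61 for Wfdc6a and 0.840 for Cubn. These means include replicate 3. Among the libraries of that group Slc36a2 ran from 12.1 to 22.8 and Lipc from 0.445 to 26.7 CPM per kilobase. Mir99ahg ran from 2.82 to 4.38 and Wfdc6a from 0 to 4.61. The order within each of these pairs is thus not settled. In WT MS-275 it was 26.9 CPM per kilobase for Slc36a2, 26.6 for Lipc, 9.73 for Lgals2, 3.93 for Wfdc6a, 2.95 for Mir99ahg and 0.728 for Cubn. The neighbours Slc36a2 and Lipc overlapped in their WT MS-275 libraries (23.7 to 32.3 and 21.9 to 33.3 CPM per kilobase), as did Wfdc6a and Mir99ahg (2.55 to 5.07 and 2.13 to 4.16 CPM per kilobase). In WT vehicle Slc36a2 stood alone at 5.22 CPM per kilobase, ahead of Mir99ahg at 1.00, Lipc at 0.863, Lgals2 at 0.316, Cubn at 0.213 and Wfdc6a at 0.132. In Runx2+/- vehicle the mean was 3.63 CPM per kilobase for Slc36a2, 1.19 for Lipc, 1.14 for Mir99ahg, 0.657 for Cubn, 0.335 for Lgals2 and 0.231 for Wfdc6a. With MS-275, Cubn had the lowest mean of the 6 in both genotypes.

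Among all genes tested, the MS-275 differences of the 6 genes spread from the very top to the upper part of the list. In Runx2+/- embryos Lgals2 ranked 8, Lipc 19, Wfdc6a 21, Slc36a2 133, Mir99ahg 407 and Cubn 5312 from the highest of 17967 log2 fold changes. In WT embryos Lipc ranked 6, Lgals2 8, Wfdc6a 9, Slc36a2 227, Cubn 724 and Mir99ahg 1021. Their median log2 fold change was 2.78 in Runx2+/- and 3.60 in WT, where that of all genes tested was -0.039 and -0.13. In Runx2+/- embryos none of the 6, and 0 of 17967 genes (0%), passed an adjusted p of 0.05 in edgeR's quasi-likelihood test. In that comparison 3782 genes (21.0%) had an unadjusted p under 0.05, DESeq2 called 1220 genes, 3 of the 6 among them, and limma-voom called 0. Without Runx2+/- MS-275 replicate 3, edgeR called 5955 genes there, with 5 of the 6 among them. In WT embryos 5 of the 6, all but Cubn, were called higher, where 9.67% of all genes were. Lgals2 and Wfdc6a, with 2 to 8 counts in each vehicle library, passed the filter on low counts through their MS-275 libraries. The calls of that comparison rested on single libraries: edgeR called 0 of the 6, and 0 genes, in WT embryos when WT vehicle replicate 1 or 2, Runx2+/- vehicle replicate 1 or 2, any WT MS-275 library or Runx2+/- MS-275 replicate 2 was left out. Without Runx2+/- MS-275 replicate 3 it called all 6, with 8480 genes in all. It called 5 of the 6 without WT vehicle replicate 3 (5601 genes in all), Runx2+/- vehicle replicate 3 (2021 genes) or Runx2+/- MS-275 replicate 1 (5578 genes). DESeq2 called all 6 in WT embryos, where it called 3326 of all genes higher, and limma-voom none, with 0 genes higher. With no filter on low counts edgeR called none, with 0 genes higher. With scaling by library size alone it called 4, with 526 genes higher. The direction in WT embryos stayed the same for each of the 6 genes in every such fit. Since the WT groups did not overlap for any of them, leaving out a library could hardly turn it, so nothing is read from this. Groups did not overlap, with MS-275 higher, for 3 of the 6 genes in Runx2+/- (6.33% of all genes) and for 6 of the 6 in WT (27.3% of all genes). Without Runx2+/- MS-275 replicate 3 the Runx2+/- groups did not overlap for 5 of the 6, all but Cubn. The share of all genes was not counted for that setting, and leaving out a library can only make such groups overlap less. Since these differences chose the genes, nothing is read from the counts.

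**Figure D2:**
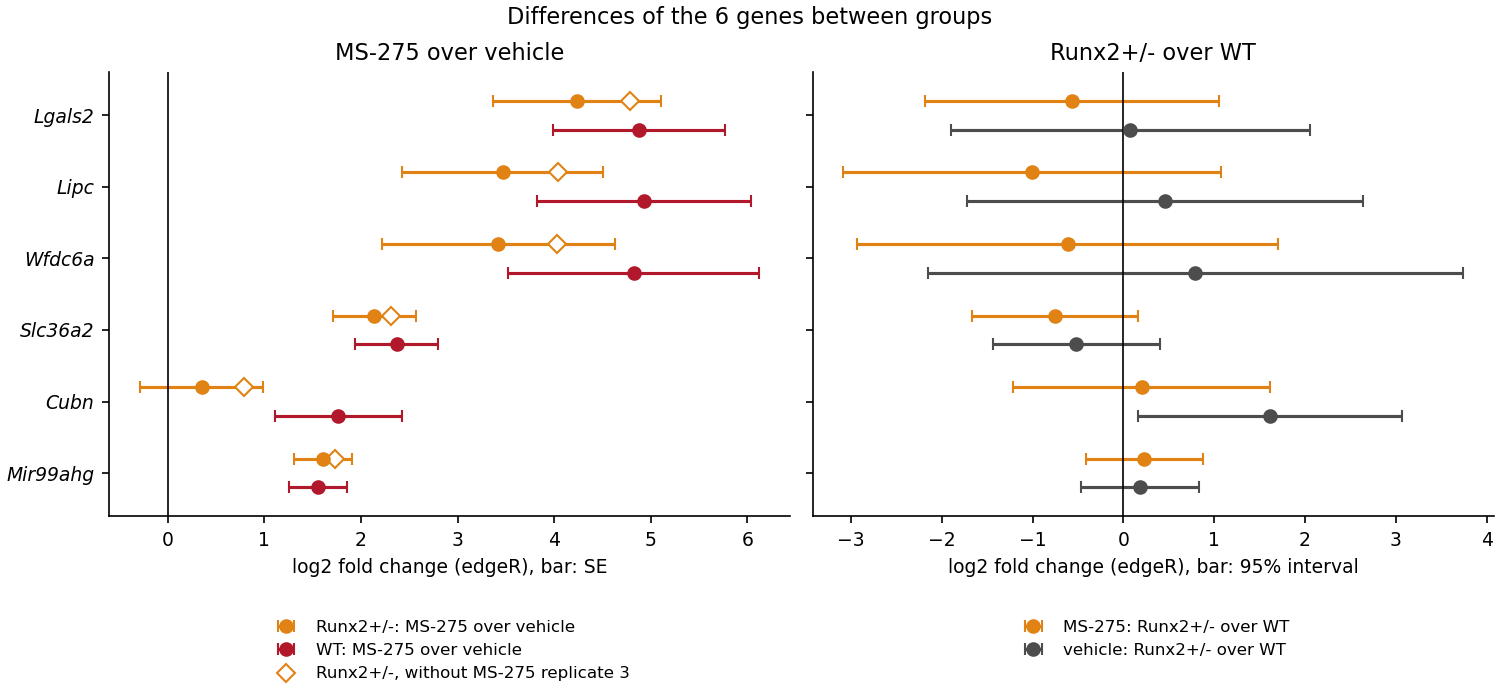
Log2 fold changes of the 6 genes (x axis, edgeR) for MS-275 over vehicle (left, bars are SE) and for Runx2+/- over WT (right, bars are 95% intervals); open diamonds leave out Runx2+/- MS-275 replicate 3. On the left the values run from 0.35 to 4.93, with Cubn in Runx2+/- at the low end, and on the right the interval of Cubn with vehicle, 0.16 to 3.07, is the one that does not hold 0.

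The comparison of genotypes asks whether the labelled loss of a Runx2 copy went with a different level of these genes, and whether the drug difference was of another size. The rule did not use the difference between genotypes, although that difference rests on the same libraries. The interaction is made from the MS-275 differences and so is not free of the choice. None of the 6 genes passed in any of the 4 genotype comparisons (edgeR, adjusted over 17967 genes), where 0 genes (0%) passed in all. Unadjusted p-values under 0.05 were found for 55 genes (0.306%) between the vehicle groups, 2832 (15.8%) between the MS-275 groups, 1573 (8.75%) over both treatments and 953 (5.30%) for the interaction. DESeq2 called 0, 702, 75 and 38 genes in these 4 comparisons, and none of the 6.

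With vehicle, the largest genotype difference was that of Cubn, whose Runx2+/- libraries (5.13, 4.61 and 19.7 CPM) lay above the WT libraries (3.51, 2.60 and 3.46 CPM) without overlap. Among all genes, 2.69% had groups that did not overlap with Runx2+/- higher. The log2 fold change of Cubn was 1.62 (SE 0.66, 95% interval 0.16 to 3.07, unadjusted p = 0.0325 and adjusted p = 1.00 by edgeR), and 0.60 without Runx2+/- vehicle replicate 3. Slc36a2 differed by -0.52 (95% interval -1.44 to 0.40), Mir99ahg by 0.18 (-0.47 to 0.84), Lgals2 by 0.074 (-1.90 to 2.05), Lipc by 0.46 (-1.72 to 2.64) and Wfdc6a by 0.79 (-2.15 to 3.74), all with an edgeR adjusted p of 1.00. The intervals of Slc36a2, Mir99ahg, Lgals2, Lipc and Wfdc6a hold differences in either direction, so no genotype difference was detected for them. Those of Lgals2, Lipc and Wfdc6a were the widest and leave room for large differences.

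With MS-275, Slc36a2 was the gene whose genotypes did not overlap: it was at 74.1, 42.8 and 39.3 CPM in Runx2+/- libraries, against 80.7, 105 and 77.2 CPM in WT libraries. Groups did not overlap with Runx2+/- lower in 7.52% of all genes. Its log2 fold change was -0.75 (SE 0.41, 95% interval -1.67 to 0.16, edgeR adjusted p = 0.384), and -0.58 without Runx2+/- MS-275 replicate 3. Lipc differed by -1.01 (95% interval -3.08 to 1.07, edgeR adjusted p = 0.600), and by -0.43 without that library. For Lgals2 the difference was -0.56 (-2.18 to 1.05, edgeR adjusted p = 0.700) and for Wfdc6a -0.61 (-2.93 to 1.70, edgeR adjusted p = 0.770), and without that library -0.015 and -0.0030. Mir99ahg differed by 0.23 (-0.42 to 0.88, edgeR adjusted p = 0.695) and Cubn by 0.20 (-1.21 to 1.62, edgeR adjusted p = 0.878). Averaged over both treatments, Slc36a2 was lower in Runx2+/- by a log2 value of -0.64 (95% interval -1.29 to 0.011, edgeR adjusted p = 0.567) and Cubn higher by 0.91 (-0.10 to 1.92, edgeR adjusted p = 0.569), and neither passed.

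The interaction, the MS-275 difference in Runx2+/- minus that in WT, passed for none of the 6 genes. It is made from MS-275 differences, which chose the genes, so nothing is read from its sign. It was -1.47 for Lipc (SE 1.36, 95% interval -4.48 to 1.54, edgeR adjusted p = 0.878), -1.42 for Cubn (SE 0.91, -3.43 to 0.60, edgeR adjusted p = 0.873) and -1.40 for Wfdc6a (SE 1.70, edgeR adjusted p = 0.895). It was -0.64 for Lgals2 (SE 1.17, edgeR adjusted p = 0.920), -0.23 for Slc36a2 (SE 0.58, edgeR adjusted p = 0.937) and 0.047 for Mir99ahg (SE 0.42, edgeR adjusted p = 0.982). Without Runx2+/- MS-275 replicate 3 the value was -0.89 for Lipc, -0.97 for Cubn and -0.80 for Wfdc6a. The smaller ratios of Lipc and Wfdc6a in Runx2+/- embryos were thus not shown to differ from those in WT embryos.

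The profiles of the 6 genes over the 12 libraries held 1 close trio. These profiles contain the MS-275 difference that chose the genes, and the trio had WT log2 fold changes of 4.82 to 4.93, so closeness among them and to other genes higher with MS-275 partly restates the choice. Likeness was measured as the root mean square difference of log2 CPM after each gene was centred on its own mean (n = 12 libraries, which all genes share), so that 0 means the same profile. Lipc and Wfdc6a differed by 0.57, Lgals2 and Wfdc6a by 0.60 and Lgals2 and Lipc by 0.66. Next came Slc36a2 and Mir99ahg at 0.76 and Cubn and Mir99ahg at 0.83, and the other 10 pairs lay at 1.14 to 1.87. In Runx2+/- MS-275 replicate 3 the trio lay at about the vehicle level, whereas Slc36a2 and Mir99ahg did not.

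Among all other genes tested, those nearest to the trio included several bone genes. Lipc lay nearest to Ibsp, which encodes bone sialoprotein (0.35), Timp1, an inhibitor of matrix metalloproteinases (0.35), and Ifitm5, an osteoblast membrane protein (0.37). Ibsp was at 17975, 8952 and 375 CPM in Runx2+/- MS-275, against 1212, 328 and 460 CPM in Runx2+/- vehicle. In WT embryos Ibsp was at 11018, 15365 and 16858 CPM with MS-275, against 794, 453 and 976 CPM with vehicle. Like Lipc, it was low in Runx2+/- MS-275 replicate 3. Wfdc6a lay nearest to Phex, an endopeptidase of osteoblasts and osteocytes (0.33), Enpp6, a choline-specific phosphodiesterase (0.36), and Cgref1, which encodes a secreted EF-hand protein (0.37). Phex was at 630, 310 and 19.4 CPM in Runx2+/- MS-275, against 61.4, 26.8 and 43.2 CPM in Runx2+/- vehicle. Phex was at 425, 500 and 463 CPM in WT MS-275, against 37.7, 30.3 and 44.2 CPM in WT vehicle. Lgals2 lay nearest to Cgref1 (0.49), to Panx3, a pannexin channel of osteoblasts and chondrocytes (0.51), and to 2210407C18Rik (0.52). Ibsp and Phex belong to the osteoblast markers whose sum is given above. Markers of other cell types were also summed. The 8 osteoclast markers summed to 979, 499.5 and 72.9 CPM in Runx2+/- MS-275 and 87.0 to 528 CPM in Runx2+/- vehicle. In WT embryos they summed to 2021 to 2302 CPM with MS-275 and 225 to 478 CPM with vehicle. Unlike the trio, their Runx2+/- groups overlapped through MS-275 replicate 2 as well as replicate 3. The fibroblast, endothelial and myeloid lists given next did not overlap through replicate 2. For 5 markers of fibroblasts and dura the sums were 12462, 9115 and 1137 CPM in Runx2+/- MS-275 and 1040 to 2379 CPM in Runx2+/- vehicle, and 7541 to 15674 CPM in WT MS-275 and 1034 to 2278 CPM in WT vehicle. The 4 endothelial markers summed to 717, 554 and 142 CPM in Runx2+/- MS-275 and 154 to 232 CPM in Runx2+/- vehicle. In WT embryos they summed to 496 to 636 CPM with MS-275 and 174 to 272 CPM with vehicle. The 5 myeloid markers had a like pattern, with 421, 375 and 123 CPM in Runx2+/- MS-275. In WT embryos edgeR called 9 of 11 osteoblast, 3 of 8 osteoclast and 3 of 5 fibroblast and dura markers higher. It also called 1 of 4 endothelial and 2 of 5 myeloid markers higher, where 9.67% of all genes were. The part of these cell types in the Lgals2, Lipc and Wfdc6a levels was not tested.

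Mir99ahg lay nearest to Slc16a4, of the monocarboxylate transporter family (0.24), and to the zinc finger genes Zfp976 (0.27) and Zfp975 (0.29). Slc16a4 was at 52.7, 38.5 and 20.5 CPM in Runx2+/- MS-275, against 12.5, 11.6 and 18.5 CPM in Runx2+/- vehicle. Among WT libraries it was at 27.3, 35.5 and 50.5 CPM with MS-275, against 12.5, 12.2 and 10.7 CPM with vehicle. Slc16a4 was thus also above the vehicle libraries of its genotype in Runx2+/- MS-275 replicate 3, by less than Mir99ahg. Cubn lay nearest to Ildr2 (0.29), to Cldn11, a tight junction claudin (0.37), and to the glucose transporter gene Slc2a12 (0.40). Ildr2 was at 117, 134 and 21.1 CPM in Runx2+/- MS-275, against 29.8, 39.7 and 129 CPM in Runx2+/- vehicle. In WT embryos Ildr2 was at 119, 88.4 and 86.8 CPM with MS-275, against 30.0, 29.6 and 28.2 CPM with vehicle. Ildr2 shared with Cubn both the high value in Runx2+/- vehicle replicate 3 and the low one in Runx2+/- MS-275 replicate 3. Slc36a2 had no neighbour as near: Gm10561 lay at 0.53, Cd300lg, which encodes a receptor of endothelial cells, at 0.54, and Decr1, an enzyme of mitochondrial fatty acid oxidation, at 0.55. Without the 3 libraries that stood apart, 1 of the 3 nearest genes of Lgals2 was the same, 2 of the 3 of Lipc, and none of those of the other 4 genes. With a prior count of 0.5 in place of 2, 1 of the 3 was the same for Lgals2 and 0 for Wfdc6a, and all 3 for the other 4 genes. The nearest genes of Lgals2 and Wfdc6a thus depend on that setting.

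**Figure D3:**
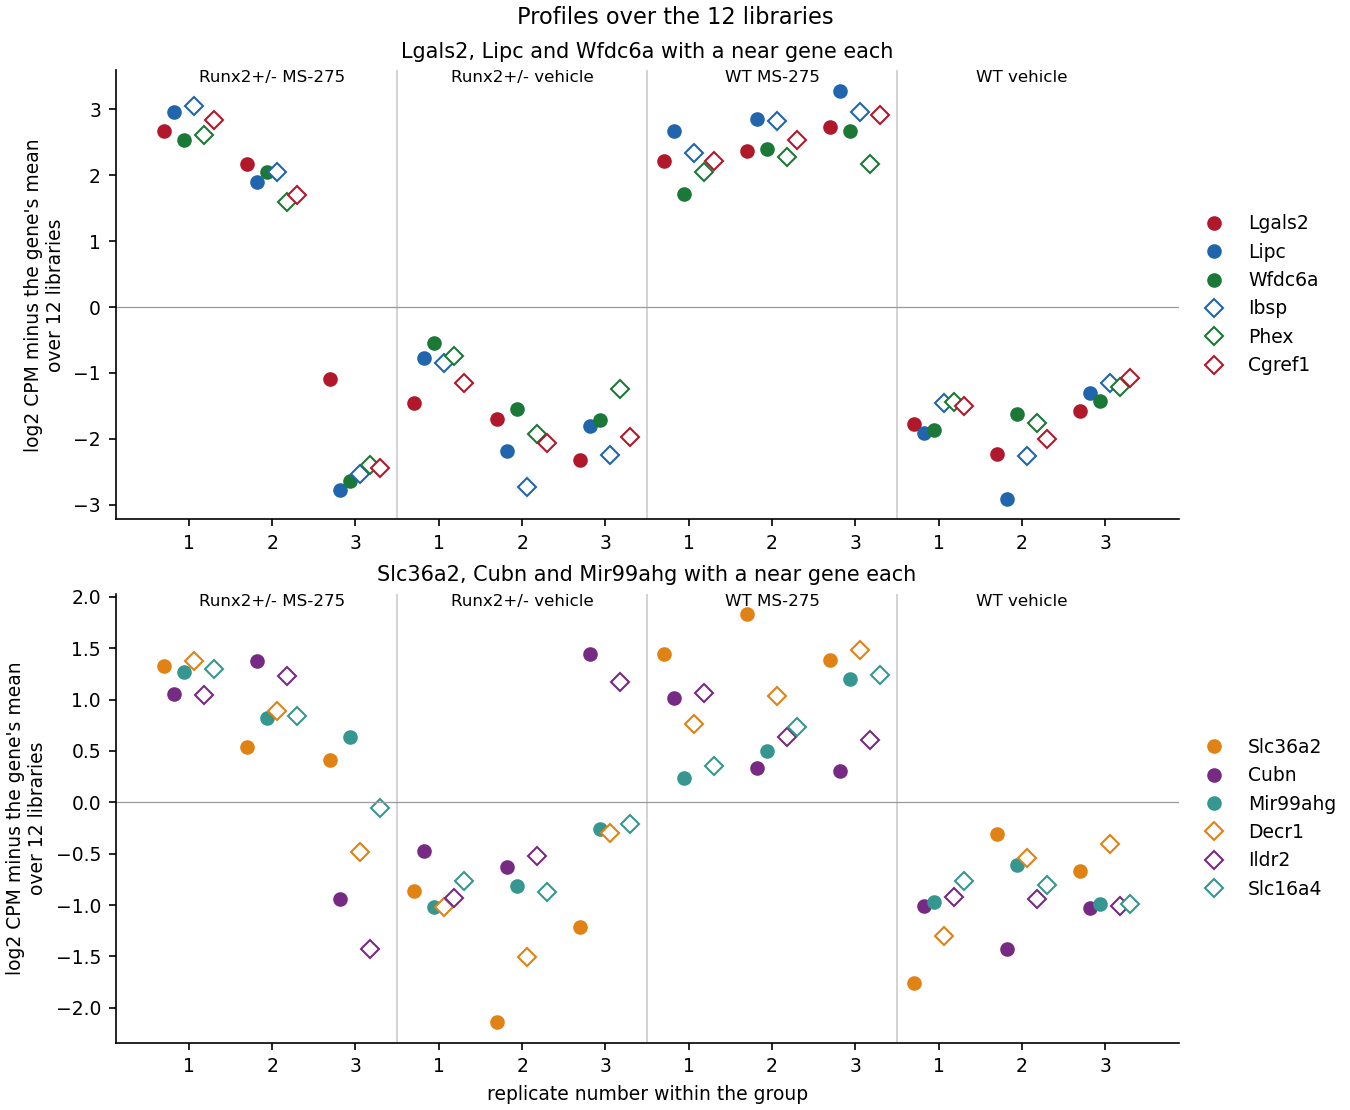
Centred log2 CPM (y axis) of the 6 genes (filled circles) and of 1 near gene each (open diamonds) in the 12 libraries (x axis, replicates 1 to 3 of each group, spread sideways so that points do not hide each other). The trio and its near genes lie at about the vehicle level in Runx2+/- MS-275 replicate 3, while Cubn and Ildr2 lie high in Runx2+/- vehicle replicate 3 and low in Runx2+/- MS-275 replicate 3.

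The relatives of the 6 genes were described by lists of their families and partners, which leave the 6 out. In Runx2+/- embryos no gene of any list passed between MS-275 and vehicle, as no gene did at all. In WT embryos 19.0% of all genes passed (edgeR), 9.67% higher and 9.33% lower with MS-275, and these calls share the dependence on single libraries given above. Scaling by library size alone shifts the WT median of all genes from -0.13 to -0.95, and 526 genes were then called higher and 7009 lower. All 9 genes of the galectin list were tested, which includes the galectin-like gene Lgalsl and Lgals3bp, whose product binds a galectin. In WT embryos 0 rose and 1 fell, with a median log2 fold change of 0.67 that turned to -0.17 with library size alone. The 1 that fell was Lgals7, an epithelial galectin, which averaged 2.24 CPM in WT MS-275, against 86.9 CPM in WT vehicle (log2 fold change -5.29, SE 1.28, edgeR adjusted p = 0.043). Epidermis markers moved with it: the 7 of that list summed to 11.3 to 14.4 CPM in WT MS-275, against 1296 to 4020 CPM in WT vehicle, and their part in the Lgals7 value, and in the lower values of Lipg, Liph, Wfdc5, Wfdc18 and Lrp2 given below, was not tested. Lgals1, the most abundant galectin in counts, averaged 1855 CPM in Runx2+/- MS-275 and 437 CPM in Runx2+/- vehicle, and for WT embryos 2665 CPM with MS-275 and 534 CPM with vehicle (WT log2 fold change 2.32, SE 0.85, edgeR adjusted p = 0.066).

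Of the 14 listed secreted lipases and their cofactors, 11 were tested in WT embryos, 2 rose and 2 fell, with a median of -0.32. Lipi, a relative of Lipc whose human protein cleaves phosphatidic acid, was at 27.5 CPM in Runx2+/- MS-275 and 3.04 CPM in Runx2+/- vehicle, and for WT embryos 54.7 CPM with MS-275 and 3.05 CPM with vehicle on average. It rose in WT embryos by a log2 value of 4.16 (SE 0.94, edgeR adjusted p = 0.043), close in size to Lipc. Angptl4, a secreted inhibitor of lipoprotein lipase, rose by 1.80 (SE 0.43, edgeR adjusted p = 0.043). Endothelial lipase, Lipg, averaged 0.213 CPM in WT MS-275, against 4.26 CPM in WT vehicle (log2 fold change -4.31, edgeR adjusted p = 0.043), and Liph also fell (-1.97). Lpl, which encodes lipoprotein lipase and had the highest level of the list in WT vehicle, averaged 113 CPM in Runx2+/- MS-275 and 56.0 CPM in Runx2+/- vehicle without overlap (log2 fold change 1.02, SE 0.30, edgeR adjusted p = 0.181), and for WT embryos 79.2 CPM with MS-275 and 88.6 CPM with vehicle.

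Of 22 genes of the whey acidic protein family, 8 were tested in WT embryos, 1 rose and 2 fell, with a median of -0.36. Wfdc1 rose to 14.8 CPM in WT MS-275, against 3.03 CPM in WT vehicle (log2 fold change 2.29, SE 0.57, edgeR adjusted p = 0.043), and averaged 9.47 CPM in Runx2+/- MS-275 and 3.43 CPM in Runx2+/- vehicle. Wfdc18 (-6.60) and Wfdc5 (-5.67) fell. Wfdc6b, the nearest relative of Wfdc6a by name, was too low to test, at 0.083 CPM in WT MS-275, against 0.016 CPM in WT vehicle. Of 15 amino acid transporters, 14 were tested, 2 rose and 1 fell, with a median of -0.23, against 1 higher, 6 lower and -1.03 with library size alone. Those that rose were Slc38a4 (1.57) and Slc38a2 (1.52), sodium-coupled transporters of neutral amino acids, of which Slc38a4 did not pass with library size alone, and Slc7a5, a transporter of large neutral amino acids, fell (-1.82). The closest paralogs of Slc36a2 did not pass: Slc36a1 averaged 16.8 CPM in WT MS-275, against 22.3 CPM in WT vehicle, and Slc36a4 64.9 CPM in WT MS-275, against 54.7 CPM in WT vehicle. Slc36a3 was too low to test.

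Of 14 genes for cubilin's partners and the handling of vitamin B12, 13 were tested in WT embryos, 4 rose and 2 fell (Lrp2 and Clcn5), with a median of 0.027 that turned to -0.79 with library size alone. Amn, which encodes amnionless, the partner that brings cubilin to the cell surface, averaged 0.087 CPM in Runx2+/- MS-275 and 0.550 CPM in Runx2+/- vehicle, and for WT embryos 0.346 CPM with MS-275 and 0.408 CPM with vehicle, with 0 to 24 counts per library. All counts of Amn in Runx2+/- MS-275 lay in replicate 3 (0, 0 and 0.261 CPM). Lrp2, which encodes megalin, the co-receptor, averaged 7.27 CPM in Runx2+/- MS-275 and 20.8 CPM in Runx2+/- vehicle. It fell to 0.461 CPM in WT MS-275, against 12.9 CPM in WT vehicle (log2 fold change -4.79, SE 0.84, edgeR adjusted p = 0.043), opposite to Cubn. Those that rose were Lrpap1, a chaperone of megalin and its relatives (1.31), Mmut, the mitochondrial mutase that needs vitamin B12 (1.20), Cd320, the receptor for vitamin B12 on transcobalamin (1.02), and Lmbrd1, which takes part in the release of vitamin B12 from lysosomes (0.78). With library size alone 0 genes of this list were called higher and 5 lower, and Lmbrd1 turned to -0.078. Of the 12 listed genes around the miR-99, let-7 and miR-125 clusters, 3 were tested and none passed in WT embryos, with a median of -0.88, while Mir100hg (edgeR adjusted p = 0.039) and Lin28b (0.045) passed as lower with library size alone. Mir99a reached 2.13 on the log2 scale (SE 0.86, edgeR adjusted p = 0.081). Mir100hg, the host of the paralogous cluster, averaged 373 CPM in Runx2+/- MS-275 and 289 CPM in Runx2+/- vehicle, and for WT embryos 139 CPM with MS-275 and 256 CPM with vehicle, so it did not share the pattern of Mir99ahg.

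**Figure D4:**
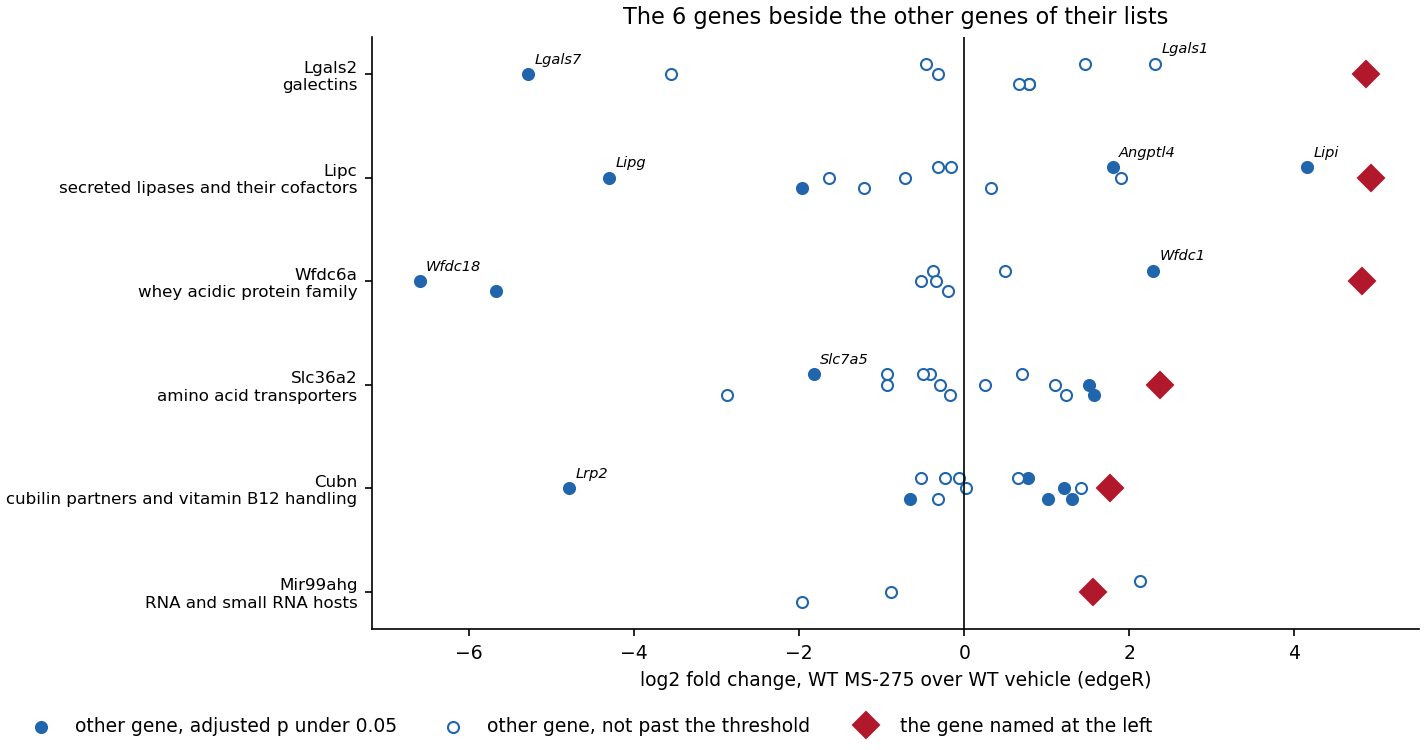
Log2 fold change of WT MS-275 over WT vehicle (x axis, edgeR) for the 6 genes (red diamonds) and for the tested genes of their lists (blue circles, filled where the adjusted p was under 0.05), 1 list per row. Lipi at 4.16 is the list gene closest to its diamond in the upper 3 rows, and Lrp2 at -4.79 lies opposite to Cubn at 1.77.

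The genes beside the 6 on their chromosomes were also read. Of the 36 nearest tested genes, 3 on each side of each gene, 4 rose and 3 fell in WT embryos, with a median log2 fold change of -0.013. Around Cubn, Rsu1 at 4923 bases rose (1.88, SE 0.49, edgeR adjusted p = 0.043), Trdmt1 at 17201 bases rose (0.99) and C1ql3 at 264532 bases fell (-2.62). Rsu1, a regulator of cell adhesion, averaged 160 CPM in Runx2+/- MS-275 and 47.9 CPM in Runx2+/- vehicle, and for WT embryos 172 CPM with MS-275 and 46.7 CPM with vehicle. Beside Lipc, Mindy2 rose (0.61) and Aqp9 fell (-1.75), and beside Mir99ahg, Btg3 rose (1.64) and Nrip1 fell (-0.75). None of the neighbours of Lgals2, Wfdc6a or Slc36a2 passed, including Lgals1, 71196 bases from Lgals2, and Slc36a1, 19273 bases from Slc36a2. Outside Cdc42ep1, other genes that share exonic bases with the 6 were Gm13270 within Cubn and Gm11146 within Mir99ahg, both on the opposite strand and each at 0.125 CPM or less on average in every group.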

How the data were processed

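RNA was sequenced from 12 calvaria libraries with a stranded total RNA kit, per the labels' protocols. The deposited values are whole-number read counts per mouse Ensembl gene, 1 file per library, made by the authors with Trimmomatic, Bowtie2, SAMtools and HTSeq, per the submitters' processing notes. Those notes name GRCh38.p7, a human build, and no source used here gives the strand setting. The 5 summary entries of each file were left out, where reads outside genes were 5.21% to 22.2% of those aligned uniquely.

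Python 3.11.15 and R 4.3.3 were used. All 12 libraries entered 1 edgeR 4.0.16 quasi-likelihood fit (robust, filterByExpr, TMM scaling with factors 0.598 to 1.33, 8 residual degrees of freedom) with 4 group means and no covariate. Tests are two-sided, with Benjamini-Hochberg adjustment over 17967 genes and a threshold of 0.05. Intervals and floors cover counting error or the spread of the fit only. The script was tested on simulated data. Alternatives were DESeq2 1.42.0, limma-voom 3.58.1, other scalings and filters, a replicate block and leaving out each library. An exact permutation test of 3 against 3 can reach 0.1 at best and was not used. Log2 CPM used a prior count of 2. The 6 genes and all lists were chosen with earlier results of these data known. Named genes were the 6, members of their lists that passed (at most 4) or stood highest, 3 neighbours on each side and the 3 nearest profiles, with a few others, such as the paralogs and partners named beside them, chosen after their values were seen.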

Additional observations from a re-analysis of the deposited data

How the results depend on the processing

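The number of the 6 genes called higher in WT embryos was 5, and 0 with no filter on low counts, 0 with limma-voom, 0 with a replicate block, and 0 to 6 when single libraries were left out. All genes called there numbered 3414, against 7535 with library size alone (526 higher, 7009 lower, beside 1738 higher and 1676 lower), 0 with no filter, 7223 with DESeq2, 1 with limma-voom, 0 with the replicate block, and 0 to 8480 without single libraries. In Runx2+/- embryos DESeq2 called 3 of the 6 and 1220 genes, and leaving out libraries gave 0 to 5 and 0 to 5955. Between MS-275 groups edgeR called 0 genes, and 0 to 23 without single libraries, over both treatments 0, and 0 to 1, and for the interaction 0, and 0 to 1. DESeq2, with all libraries, called 702, 75 and 38. With library size alone the WT log2 differences were 4.04 for Lgals2, 4.10 for Lipc, 3.98 for Wfdc6a, 1.55 for Slc36a2, 0.98 for Cubn and 0.68 for Mir99ahg.

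Signs turned for these values. Cubn in Runx2+/- embryos was -0.33 with library size alone and -0.075 to 1.30 without single libraries, and between MS-275 groups -0.29 with limma-voom and -0.23 to 0.64 without single libraries. Between vehicle groups Lgals2 was -0.027 with the replicate block and -0.23 to 0.36 without single libraries, Lipc -0.095 to 0.90 and Mir99ahg -0.071 to 0.34. Over both treatments Wfdc6a was -1.23 with limma-voom, -0.20 with the block and -0.29 to 0.40 without single libraries, Lgals2 -0.56 to 0.029 and Lipc -0.78 to 0.012. For the interaction, Slc36a2 was -0.58 to 0.086 and Mir99ahg -0.16 to 0.37. None of these values had passed. The cause was not tested. Same-numbered libraries correlated at -0.655 to 0.812 in their deviations, over 0.1 in 6 of 18 pairs, so the numbers do not pair the samples across all groups. Between the vehicle groups all 3 pairs were over 0.1 (0.220, 0.752 and 0.812), though WT vehicle replicate 1 correlated more with Runx2+/- vehicle replicate 2 (0.679), and the replicate block called 0 of the 6 and 0 genes there, as without it, with Cubn at 1.58. Low counts limit Lgals2 and Wfdc6a with vehicle.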
